A study of Mus musculus with 2 samples.

Results

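The mature miRNAs of miR-320, miR-484, miR-877 and miR-1224 were followed in mouse embryonic stem cells at the start and after 10 days of differentiation as embryoid bodies, which are aggregates of cells kept in suspension. The members were all probes whose reporter name is an arm of one of these 4 miRNAs, and the rule found 7 probes among the 1265 mature miRNA probes of the array. They are both arms of miR-320, miR-877 and miR-1224, and miR-484, for which the array has 1 probe. The stem cell line was ATCC CRL-1934 (ES-D3), its strain is given as 129S2/SvPas, and both days shared a medium with 15% FBS. Total RNA of each day was labelled with Cy5 and hybridised to 1 array carrying probes for miRBase release 19. With 1 array per day the comparison has no replicate check. No test was run. Every SD below is over the 3 spots of a probe, and for a difference the spots are paired between the arrays by position. Such an SD holds none of the variation between cultures.

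Most miRNAs are cut from a long primary transcript by the Microprocessor, a complex of the nuclease Drosha and its partner Dgcr8, and the resulting hairpin is then cut by Dicer. A few hairpins skip the Drosha step. The miR-320 hairpin is made directly by transcription and carries a cap at its 5′ end, and miR-484 has been described as made in a similar way in mouse cells. miR-877 and miR-1224 are mirtrons, whose hairpin is a whole short intron released by splicing and debranching. All of them still need Dicer, and miRNAs of this kind are known to persist in mouse embryonic stem cells that lack Dgcr8. The array measures mature miRNAs, so it does not show by which route any of them was made, and the name Drosha-independent rests on that background.

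The targets of the 7 probes, as the deposited array files give them, are printed first because the arms differ sharply in base composition. Capitals mark the seed, bases 2 to 8 from the 5′ end.
mmu-miR-320-3p: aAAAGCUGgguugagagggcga
mmu-miR-320-5p: gCCUUCUCuucccgguucuucc
mmu-miR-484: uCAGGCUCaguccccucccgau
mmu-miR-877-5p: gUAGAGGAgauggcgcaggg
mmu-miR-877-3p: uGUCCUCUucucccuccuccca
mmu-miR-1224-5p: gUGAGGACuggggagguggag
mmu-miR-1224-3p: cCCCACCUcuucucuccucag

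No member shared its seed with another member or with any other target on the array, so the 7 belong to 7 seed groups. The 5p arms of both mirtrons were rich in G, which made up 55% of the bases of miR-877-5p and 61.9% of those of miR-1224-5p. Their 3p arms were nearly all pyrimidine, with C and U together at 90.9% of miR-877-3p and 85.7% of miR-1224-3p, against a median of 50% over all 1265 targets. Of all targets, 99.9% had a lower share of pyrimidine than miR-877-3p. In miR-320 the arrangement of the arms was the other way round, with 86.4% pyrimidine in the 5p arm and 22.7% in the 3p arm. The longest run of bases that a member shared with any other target was 11, between miR-320-5p and miR-5107-3p, while miR-1224-3p and miR-877-3p shared 9.

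The hairpins of both mirtrons and of miR-484 are shown as RefSeq gives them for the mouse genome build GRCm38.p6, since the ends of the hairpin carry the mirtron structure. In the mirtrons capitals mark the letters GU at the start and AG at the end, which are the letters that begin and end most introns. In miR-484 capitals mark the mature miRNA.
Mir877, chr17:35960730-35960814, minus strand: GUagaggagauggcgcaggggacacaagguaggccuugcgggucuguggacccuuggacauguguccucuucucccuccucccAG
Mir1224, chr16:20604452-20604536, plus strand: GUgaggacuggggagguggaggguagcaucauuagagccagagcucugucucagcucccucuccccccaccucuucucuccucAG
Mir484, chr16:14159626-14159692, plus strand: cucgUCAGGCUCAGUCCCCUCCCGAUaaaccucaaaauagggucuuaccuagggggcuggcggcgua

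Mir877 lies within the protein-coding gene Abcf1 and Mir1224 within the protein-coding gene Vwa5b2 in the RefSeq annotation. In both mirtron hairpins the 5p arm starts at the first base. The 3p arm of Mir1224 ends at the last base, and that of Mir877 ends 1 base before it. Of the 1005 hairpins in the RefSeq table, 30 (2.99%) begin with GU and end with AG. These include the hairpins of miR-20a and miR-194, so the letters at the ends do not define a mirtron. The 5 members other than the arms of miR-320 were matched to the RefSeq table, and all 5 had the same name and mature sequence there as in the array files.

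Detection was judged against the 5 blank spots of each array: the median of a probe's 3 spots had to exceed their 95th percentile, 70.0 scanner units for day 0 and 71.4 for day 10. All 7 members were detected on both arrays, whereas of all 1265 probes 738 were detected on day 0 and 476 on day 10. The miRNA probes were dimmer as a group on the day 10 array. In scanner signal, the median log2 ratio of day 10 over day 0 was -0.77 over the 739 probes that either array detected. All 3 day 10 spots were dimmer than all day 0 spots in 83.9% of these probes and brighter in 4.6%. Of the 7 members, 5 had all day 10 spots dimmer and none had them all brighter, and in miR-877-5p and miR-1224-3p the days overlapped. Among the control probes, the median log2 ratio was -0.25 for the spike-in probes and 0.15 for the 5S rRNA probes, so they did not share the full drop. Signals were compared after normexp background correction with an offset of 50 and quantile normalization of the arrays to each other. This takes out a shift shared by the miRNA probes, and the source of that shift was not tested. Differences below are log2 values, day 10 minus day 0, on the scale of corrected signal plus 50, which understates the change of dim probes. They are relative to the other miRNAs on the array, since after normalization the median of the 739 probes was 0.024.

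None of the 7 members was at least 2-fold higher or lower on day 10. Across the array, 6.77% of the 739 probes were higher by that margin and 10.4% lower, 17.2% together, so a count of 0 among 7 is near the background. After normalization 6 of the 7 members were above 0 and 1 was below, against 51.3% of all detected probes above 0. That share counts probes detected on 1 array only, and the share among probes detected on both arrays was not computed. The percentages of detected probes given for each member below are also over all 739. The member median was 0.35, which was 0.32 above that of the 739 probes. Since all 7 were detected on both arrays, the closer comparison is with the 475 probes that both arrays detected, whose median was 0.22, and there the gap was 0.13. When the arrays were left unnormalized, or scaled by 1 constant for all probes, the gap to the 739 probes was 0.015. The 2 ends of the range were miR-484 at 0.74 and miR-877-3p at -0.75. The probes of miR-320 and miR-484 lay between 0.35 and 0.74, and those of both mirtrons between -0.75 and 0.45.

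**Figure D1:**
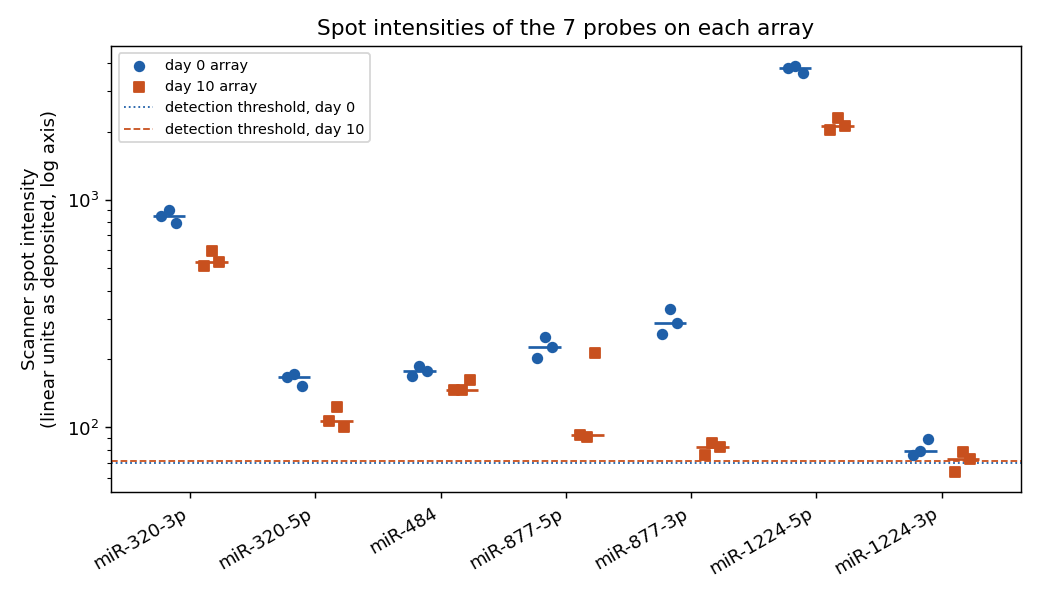
Scanner intensity of each of the 3 spots (points, linear units on a log axis) and their median (short bars) for the 7 probes on the day 0 and day 10 arrays, with the detection threshold of each array as a dotted or dashed line. The spots of miR-877-3p fell from 257 to 332 on day 0 to 75.6 to 85.3 on day 10, and 1 day 10 spot of miR-877-5p, at 213, stood apart from the others.

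The 3p arm of miR-320 is the strand known as the active miRNA of the capped hairpin. Its spots read 853, 908 and 789 on the day 0 array and 512, 596 and 533 on the day 10 array. All day 10 spots were below all day 0 spots, and the ratio of the means was 1.55-fold in favour of day 0. This drop was smaller than the median drop of the detected miRNA probes. After normalization miR-320-3p was 1.40-fold higher on day 10 (log2 difference 0.49, SD 0.090 over 3 spots), with 77.9% of the detected probes below it.

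The 5p arm of miR-320, the strand that is usually discarded, followed its partner. Its spots read 167, 172 and 152 on day 0 and 106, 122 and 100.01 on day 10, again with no overlap. The normalized difference was 0.35 (SD 0.087), a fold of 1.27. The spot differences ran from 0.29 to 0.45 for the 5p arm and from 0.39 to 0.55 for the 3p arm, so the arms overlapped and differed by 0.14 in their means.

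miR-484 had the largest positive difference of the 7. Its spots read 168, 187 and 177 on day 0 and 146, 145 and 162 on day 10. All day 10 spots lay below the lowest day 0 spot, by a small margin, and the scanner means differed by 1.17-fold. Normalized, miR-484 was 1.67-fold higher on day 10 (log2 difference 0.74, SD 0.11), with 85.9% of detected probes below it.

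miR-877-3p, the pyrimidine-rich arm of the Abcf1 mirtron, was the only member below 0 after normalization. Its spots read 257, 332 and 287 on day 0 and 75.6, 85.3 and 82.1 on day 10. The days did not overlap, and the median was 4.09 times the detection threshold on day 0 but 1.15 times on day 10. The scanner means were 3.61-fold apart. After normalization the difference was -0.75 (SD 0.073), a fold of 1.68 in favour of day 0, and 14.7% of detected probes were lower. The offset compresses values this near background. With an offset of 16 the difference was -0.95, and with the blank spots subtracted and no offset it was -1.86.

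For miR-877-5p, the other arm of the same hairpin, 1 spot decided the direction. The spots read 203, 249 and 226 on day 0 and 92.3, 91.2 and 213 on day 10. The first and second day 10 spots were far below all day 0 spots, whereas the third lay within their range. Of the 476 probes detected on day 10, only 2 had a larger spread between their spots than miR-877-5p (SD 0.71 on the log2 scale, against a median of 0.093). The mean difference was 0.12 (SD 0.72), and without the third spot it was -0.29, a fold of 1.22 in favour of day 0. The authors' processed value for this probe was 120 on day 0 and 77.2 on day 10, also lower on day 10. The arms of miR-877 differed by 0.87 in their mean differences, and the spot differences did not overlap, running from -0.42 to 0.94 for the 5p arm and from -0.83 to -0.70 for the 3p arm. The size of that gap depended on the third spot. Without it the mean differences were -0.29 for the 5p arm and -0.77 for the 3p arm.

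miR-1224-5p, the G-rich arm of the Vwa5b2 mirtron, gave spots of 3824, 3875 and 3624 on day 0 and 2039, 2294 and 2106 on day 10. The days did not overlap in scanner signal, at a ratio of 1.76 in favour of day 0. That ratio was close to the median shift of the detected miRNA probes, and the normalized difference was 0.10 (SD 0.068), a fold of 1.07. The median signal was 54.6 times the detection threshold on day 0 and 29.5 times on day 10.

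The opposite arm, miR-1224-3p, was barely detected. Its spots read 75.4, 78.9 and 88.9 on day 0 and 64.01, 78.1 and 72.7 on day 10, and the days overlapped. Its median was 1.13 times the threshold on day 0 and 1.02 times on day 10. The normalized difference of 0.45 (SD 0.13) therefore rests on signal that is hardly above the blank spots, and with a doubled detection threshold the probe dropped out and the median of the other 6 members was 0.23. The spot differences of the arms did not overlap (0.022 to 0.14 for the 5p arm, 0.36 to 0.60 for the 3p arm).

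**Figure D2:**
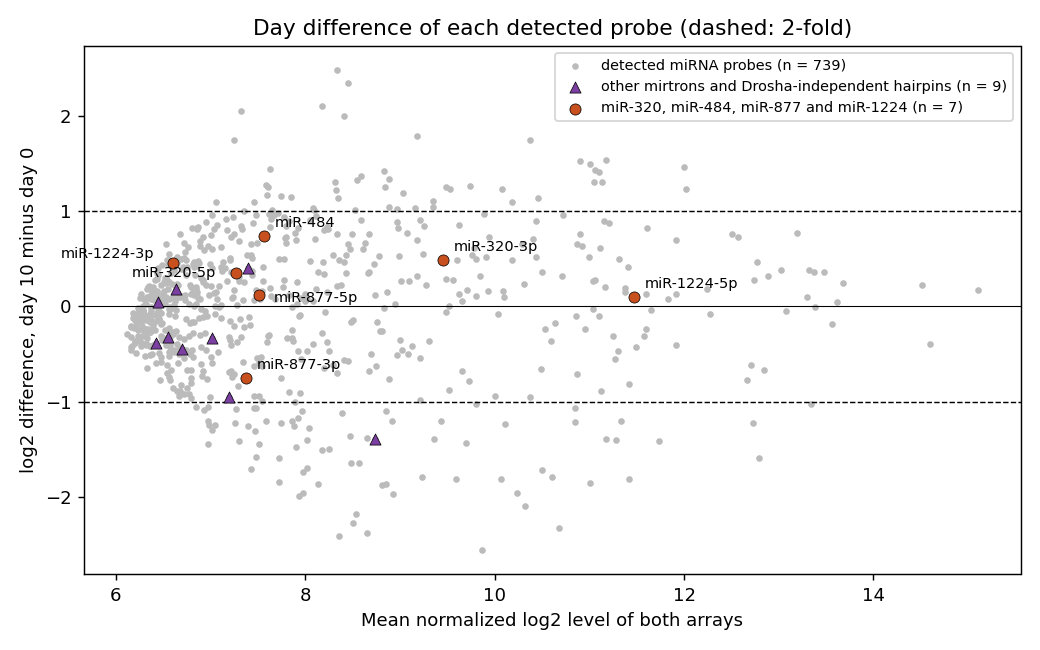
Each point is 1 of the 739 detected probes, with the mean normalized log2 level of both arrays on the horizontal axis and the log2 difference, day 10 minus day 0, on the vertical axis. The 7 members (circles) all lie inside the dashed 2-fold lines, from -0.75 for miR-877-3p to 0.74 for miR-484, while miR-3102-5p.2-5p among the 9 related probes (triangles) lies below them at -1.39.

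The sign of most members depended on how the arrays were scaled to each other. Over 14 ways of computing the values, miR-877-3p was below 0 in all 14, from -1.86 to -0.48. miR-484 and miR-1224-3p were above 0 in 12, and both arms of miR-320 in 11. The exceptions for miR-484 and miR-1224-3p were no normalization (-0.18 and -0.093) and the 5S rRNA probes set equal (-0.33 and -0.24). For both arms of miR-320 the spike-in probes set equal came on top (-0.39 for the 3p arm and -0.26 for the 5p arm). miR-1224-5p was above 0 in 10 and miR-877-5p in 8. Set against the median of the 739 detected probes in the same setting, miR-320-3p, miR-320-5p, miR-484 and miR-1224-3p were above it in all 14 and miR-877-3p below it in all 14. These margins were not computed against the 475 probes detected on both arrays, whose median under quantile normalization was higher, at 0.22 against 0.024. The smallest of the margins over the 739 probes was 0.015, for miR-320-3p under the scalings that shift all probes by 1 constant, so for that arm the margin is within its own spot SD of 0.090. Those scalings all give the same margins, so the 14 settings are not 14 separate checks.

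**Figure D3:**
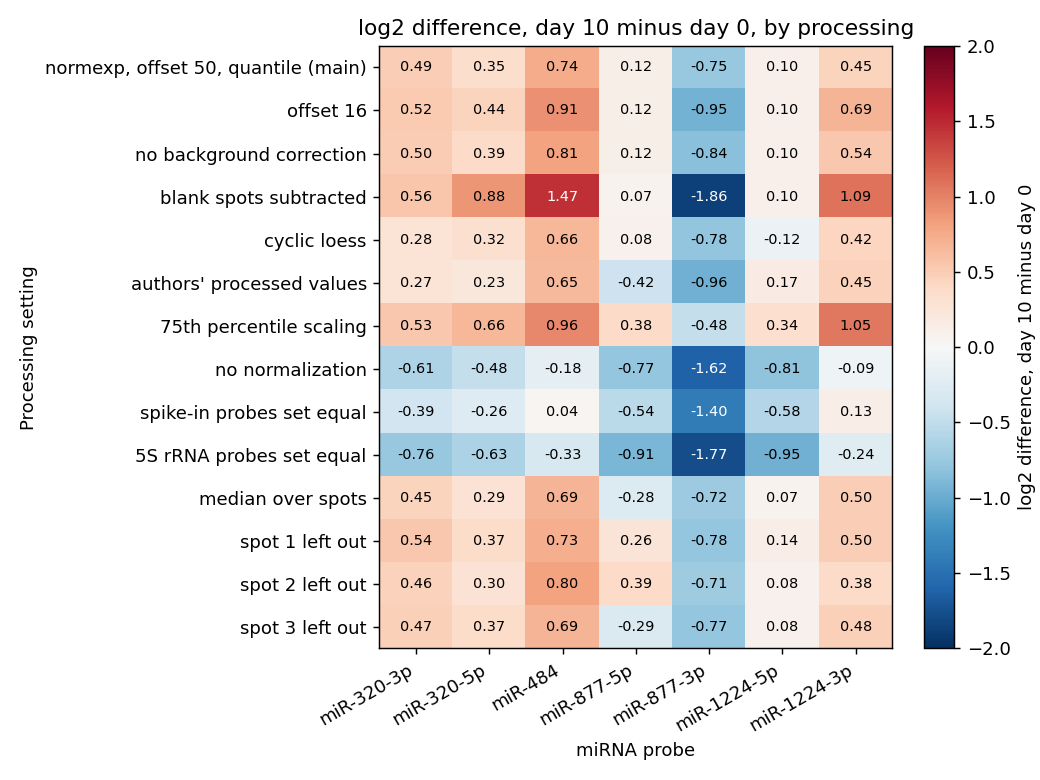
The log2 difference, day 10 minus day 0, of each of the 7 probes (columns) under 14 processing settings (rows), coloured from -2 (blue) to 2 (red). miR-877-3p is negative in every row, and the rows without normalization or with control probes set equal are shifted down for all 7.

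The authors' deposited table of processed intensities gave the same direction for miR-484 and miR-877-3p. It listed miR-484 at 87.1 on day 0 and 165 on day 10, a ratio of 1.89, and miR-877-3p at 164 and 59.7, a ratio of 0.364. It listed miR-320-3p at 565 and 691, miR-320-5p at 77.0 and 99.1, and miR-1224-5p at 2644 and 2976. For miR-1224-3p it listed 22.2 and 48.9, a ratio of 2.20 and the highest of the 7, where the scanner medians were 78.9 and 72.7. For miR-877-5p the ratio was 0.642, opposite in direction to its mean difference of 0.12. How the table was background-subtracted and scaled is not given in the sources used here.

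A list of other mouse miRNAs described as mirtrons, tailed mirtrons or hairpins made without Drosha held every arm of miR-702, miR-1839, miR-1981, miR-1982 and miR-3102, 13 probes in all. Of these 9 were detected, 2 of them on both arrays, and their median difference was -0.33, against 0.35 for the 7 members and 0.024 for all detected probes. The other 7 of the 9 passed detection through day 0 only, so the filter itself favours a low median for this list. Without the filter the median of the 13 was -0.019. For the 2 detected on both arrays it was -0.50, the midpoint of miR-3102-5p.2-5p at -1.39 and miR-1839-3p at 0.40. One of the 9 was at least 2-fold lower on day 10 and none higher. miR-3102-5p.2-5p, from the inner part of the miR-3102 hairpin, had median spots of 980 on day 0 and 165 on day 10 and was 2.62-fold lower (log2 difference -1.39, SD 0.093). miR-1839-3p, detected on both arrays, differed by 0.40 (SD 0.12).

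The other 7 detected probes of that list were seen on day 0 only, so their day 10 values are bounds. miR-702-5p, from a hairpin within Plod3, had medians of 264 and 65.1 and was at least 1.89-fold lower. miR-1982-5p, from a hairpin within Oaz1, was at least 1.26-fold lower and miR-3102-5p at least 1.12-fold lower. For miR-1839-5p, miR-1981-5p, miR-3102-3p and miR-3102-3p.2-3p the lowest detectable level on day 10 was above their day 0 level, so no fold can be given. miR-451a, known as the miRNA that is cut by Ago2 in place of Dicer after a normal Drosha step, was not detected on either array, with medians of 65.4 and 48.5.

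A second list held 9 broadly expressed miRNAs made by the usual route, of which 8 were detected. Their median difference was 0.52, with 7 above 0, 1 below and none at 2-fold. It ran from -0.98 for miR-423-5p (SD 0.026) to 0.69 for miR-425-5p (SD 0.071). miR-484, at 0.74, lay just above this range, and the other 6 members lay inside it. The low end rests on miR-423-5p alone, and the next lowest detected value of the list was 0.35. Of the 6, miR-877-3p, miR-877-5p and miR-1224-5p lay below that value, and miR-320-5p was level with it. miR-423-5p had median spots of 1230 on day 0 and 271 on day 10.

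Many other probes had day differences like those of the members. Within 0.1 log2 of each of the 6 members other than miR-877-3p there were 47 to 64 of the 475 probes detected on both arrays, and within 0.1 of miR-877-3p there were 15. The nearest to miR-320-3p were miR-17-3p (0.49) and miR-674-5p (0.49), and the nearest to miR-320-5p were miR-711 (0.35) and miR-107-3p (0.35). miR-484 was nearest to miR-421-3p (0.74) and miR-532-3p (0.73). miR-877-3p was nearest to miR-184-5p (-0.76) and miR-741-3p (-0.76), and miR-877-5p to miR-138-5p (0.12) and miR-6382 (0.12). miR-1224-5p was nearest to miR-669l-5p (0.10) and miR-351-5p (0.097), and miR-1224-3p to miR-129-1-3p (0.45) and miR-103-3p (0.45). With 1 difference per probe this likeness is a match of a single number.

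The share of G was weakly related to the day difference over the array, and the share of C and U hardly at all. Across the 739 detected probes, the share of G in the target and the difference had a Spearman rho of -0.29, and the share of C and U had a rho of 0.074. These correlations are across probes of the same 2 arrays, which are not independent replicates. The 3 G-rich members, miR-1224-5p, miR-877-5p and miR-320-3p, had differences of 0.10, 0.12 and 0.49. The 17 detected probes with at least 75% C and U, a limit chosen after the values were seen, had a median of 0.074, and 3 of them were members, miR-877-3p at -0.75, miR-320-5p at 0.35 and miR-1224-3p at 0.45. The part of base composition in the members' values was not tested.

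The labelled stem cell type was checked against miRNAs of the miR-290 cluster, the most abundant miRNA cluster in such cells of the mouse. No marker of differentiation was chosen, so differentiation by day 10 was not checked this way. The marker list held 5 of its 3p arms, miR-291a-3p, miR-292-3p, miR-293-3p, miR-294-3p and miR-295-3p, and not its other probes. These 5 were detected on both arrays, with differences from 0.32 to 0.82 and a median of 0.38. Of 8 probes for miRNAs typical of fibroblasts, all 8 were lower on day 10, 6 of them at least 2-fold, with a median of -1.32 and a range from -2.38 to -0.47. At -0.75, miR-877-3p lay inside the fibroblast range and the other members lay above it. Whether the fibroblast-type signal bears on miR-877-3p was not tested. In bulk RNA, fewer cells of a type and less of a miRNA per cell cannot be told apart.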

How the data were processed

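A single-colour array per day measured mature miRNAs in total RNA. The deposited scanner files hold a linear intensity per spot, the median density per the file headers, with no background column. No background subtraction or normalization is stated for it. The authors' table of processed intensity per probe entered only as an alternative (pseudocount 50, then log2), and its scaling is not given in the sources used here. Spots were corrected with normexp (limma 3.58.1, R 4.3.3, offset 50, all 3968 spots), log2 transformed, and the 3795 miRNA spots were quantile normalized. A probe's level is the mean over its 3 spots, and the SD of a difference is over spots at the same array position. A probe was called at a log2 difference of at least 1 in size if the brighter array detected it. For probes seen on 1 array, the bound sets the bright level against the dim array's lowest detected level, or against the probe's dim level if that is higher. The number of arrays limits the precision. The procedure was tested on simulated arrays. The planted changes were larger than any member's difference and lay in bright probes, so that test does not bear on differences of the members' size. The members and lists were chosen with earlier results of these data known. All members are named, as are the detected probes of the related list, the highest and lowest of the reference list, and the 2 probes nearest in difference to each member.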

Additional observations from a re-analysis of the deposited data

How the results depend on the processing

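With 1 array per day no test could be lost or gained. No paired analysis was possible because the days share no replicate pairs. The member median was 0.35, with 0 members at 2-fold in either direction, beside 50 higher and 77 lower probes over the array. Without normalization the member median was -0.61, with 1 member lower, and 6 probes higher and 232 lower. With the spike-in probes set equal it was -0.39, with 1 member lower, and 6 and 178 probes. With the 5S rRNA probes set equal it was -0.76, with 1 member lower, and 4 and 267 probes. In these 3 settings the lower member was miR-877-3p. Scaling to the 75th percentile gave 0.53, with 1 member higher (miR-1224-3p, 1.05), and 106 probes higher and 55 lower, which turned the balance of the 50 and 77 above. These 4 settings differ from each other by 1 constant. In each of them the member median was 0.015 above the median of the 739 detected probes, against 0.32 under quantile normalization. The 4 member medians moved with the array as a whole. Subtracting the blank spots gave 0.56, with 2 members higher (miR-484 and miR-1224-3p), 1 lower (miR-877-3p), and 154 and 300 probes. An offset of 16 gave 0.44, with 81 probes higher and 105 lower, the authors' values gave 0.23, and a doubled detection threshold gave 0.23. At 4-fold, 4 probes were higher and 7 lower. Leaving out the third spots turned miR-877-5p to -0.29, medians over spots to -0.28 and the authors' values to -0.42, and cyclic loess turned miR-1224-5p to -0.12. Apart from the scaling constant and the lone spot, the causes were not tested. Signal near the blank spots limits miR-1224-3p on both arrays and miR-877-3p on day 10.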
